A study of Mus musculus with 20 samples.

Results

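The genes of neuregulin and epidermal growth factor (EGF) signaling were followed across the cell types of the basolateral amygdala (BLA) in a mouse model that combines corticosterone with ketamine. The members are 9 of the 31053 genes in the count tables and were taken by symbol: the neuregulin genes Nrg1, Nrg2 and Nrg3, the EGF-family ligand genes Hbegf and Btc, and the receptor genes Egfr, Erbb2, Erbb3 and Erbb4. All 9 were found in the tables. All 10 mice were male wild-type C57BL/6 animals, 13 weeks old by the labels, and each gave 1 BLA library of single cells in droplets (10x Chromium). BCD/Sal mice (n = 2) drank the vehicle 2-hydroxypropyl cyclodextrin (BCD) and received saline, BCD/Ket mice (n = 3) drank BCD and received ketamine, CORT/Sal mice (n = 2) drank corticosterone in BCD and received saline, and CORT/Ket mice (n = 3) drank corticosterone and received ketamine. Corticosterone was given at 35 µg/ml for 6 weeks, ketamine at 10 mg/kg by intraperitoneal injection, and tissue was taken 24 h after the injection. By this account BCD was in the water of all 4 groups, although the paper's single-cell methods describe the control drink as regular water. Corticosterone in the drinking water is a model of the hormone component of chronic stress, not of stress itself. The prefrontal libraries were not analysed here.

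ErbB receptors are tyrosine kinases that act in pairs. Neuregulins bind ErbB3 and ErbB4, HB-EGF (from Hbegf) and betacellulin (from Btc) bind the EGF receptor (from Egfr) and ErbB4, and ErbB2 has no ligand of its own but serves as the preferred partner of the others. In the forebrain, neuregulins are best known for acting on ErbB4 of inhibitory interneurons, where they affect excitatory synapses onto these cells, and neuregulin to ErbB3 signaling is best known from myelinating glia.

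Of 28722 barcodes, 8305 passed the study's limit on the share of mitochondrial unique molecular identifiers (UMIs) and a minimum of 200 detected genes, and they held 17010282 UMIs. The kept barcodes per library ranged from 135 to 2397. One library stood apart: in the library labelled CORT/Sal 9970 the median mitochondrial share was 3.22%, against 33.2% to 57.9% in the others, and 97.1% of its barcodes were kept. Of these 2397 barcodes, 2357 fell in clusters that could not be named by the markers, 1 of which (2351 barcodes, led by Bc1, Gng13, Cnih2 and Ddn) held 99.7% barcodes of this library. CORT/Sal 9970 therefore entered only 2 cell classes, with 19 excitatory neurons (8370 UMIs) and 11 endothelial cells (3411 UMIs). In both it held the fewest UMIs of any library, and every CORT/Sal value outside them is that of 1 mouse. A kept barcode sequence was found in more than 1 library 21 times. The pair of libraries that shared the most was CORT/Sal 9969 and CORT/Sal 9970, with 10. CORT/Sal 9970 also shared 5 with BCD/Ket 9949 and 4 with CORT/Ket 9968, and CORT/Sal 9969 shared 4 with CORT/Ket 9968. Whether these barcodes hold the same cells was not tested, so the 2 CORT/Sal libraries may not be fully separate. Cells were clustered without the 9 members and without 64 other genes of the pathway, so the classes did not rest on the genes compared. Classes were named by at least 3 markers among the 50 leading genes of a cluster, for example Aqp4 and Gja1 in astrocytes, Pdgfra and Cspg4 in oligodendrocyte precursor cells (OPCs), Mog and Mag in oligodendrocytes and Gad1 and Gad2 in GABAergic interneurons. Inhibitory neurons joined these interneurons (148 cells) with a cluster led by striatal genes such as Penk and Foxp2 (132 cells, called striatal-like projection neurons). Excitatory neurons joined a cluster of 225 cells (9 libraries, median 4321 UMIs) with a shallower one of 103 (10 libraries, median 697 UMIs), named by only 3 markers. The excitatory cells of CORT/Sal 9970 had a median of 418 UMIs, against 1471 to 4339 in the other libraries. Levels are not given apart for these 2 clusters. Levels are UMIs of the gene per 1000000 UMIs of the class in a library (CPM), averaged over mice with at least 10 cells of the class, and counts come from 1 end of each transcript, so levels are compared between classes and mice and not between genes.

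Among the 10 classes, Erbb4 had its highest mean in inhibitory neurons, Erbb3 in oligodendrocytes, and Egfr and Erbb2 in astrocytes. Erbb3 and Erbb4 were both found in oligodendrocytes and OPCs, and Egfr was also found in the GABAergic interneurons, where its mean was 84.9 ± 92.7 CPM (SD, n = 6) against 77.3 ± 39.3 CPM (SD, n = 9) in astrocytes. With counts pooled over libraries, Egfr was higher in astrocytes than in these interneurons. Nrg3 was highest in neurons, Nrg1 and Nrg2 were shared by OPCs and neurons, Hbegf was highest in endothelial cells, and Btc was near its detection limit in every class. In 5 of the 9 class pairs chosen for testing the member passed the filter on low counts, and all 5 differed at an adjusted p below 0.05 (edgeR quasi-likelihood test, mouse as a block), 2 of them (Erbb3 and Hbegf) not under every alternative. The pairs were chosen with earlier results of these data known, and 21.3% to 63.3% of all genes tested in these 5 were called. In the remaining pairs, of Erbb2, Nrg1, Nrg2 and Btc, the member did not pass the filter, and without it none of the 4 was called.

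**Figure D1:**
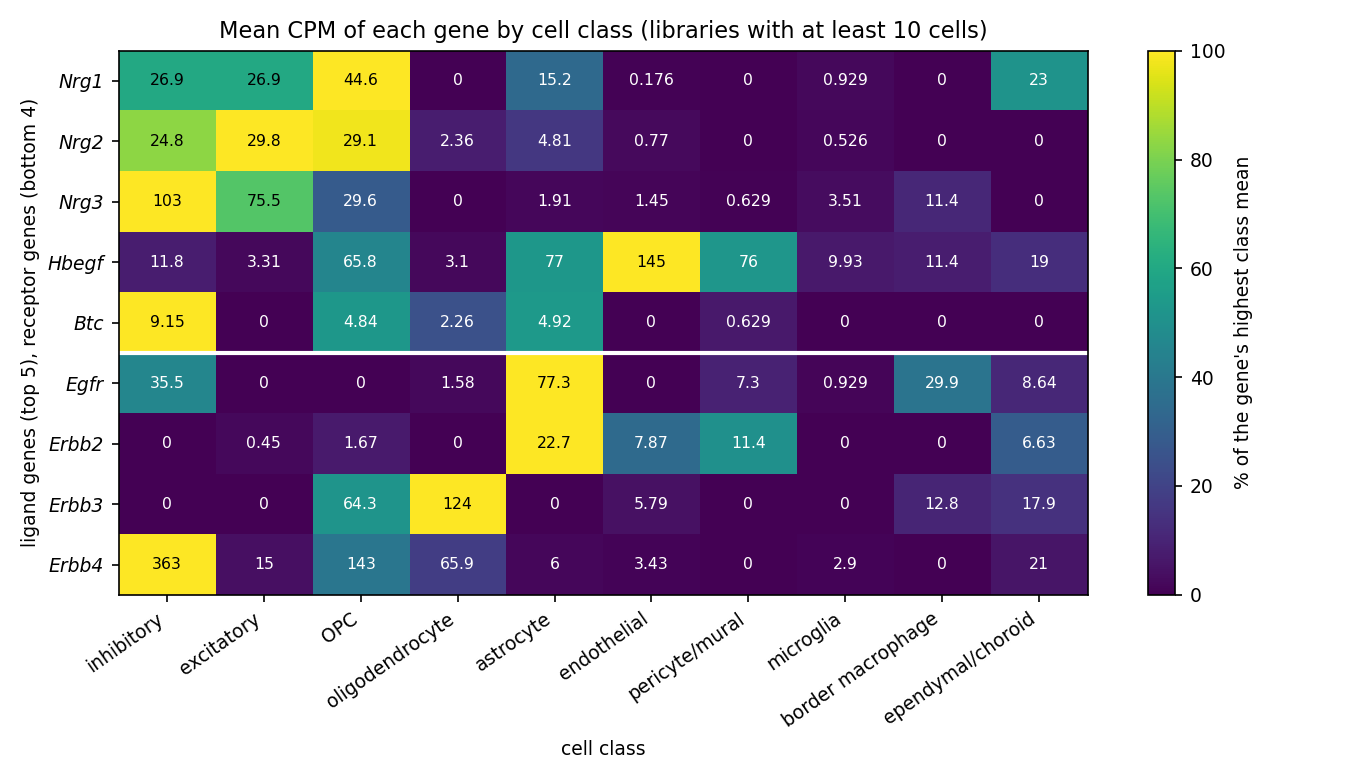
Mean CPM of the 9 genes (rows, ligands above the white line and receptors below) in 10 cell classes (columns), over mice with at least 10 cells of the class. Numbers are mean CPM and color is the percent of the gene's own highest class: Erbb4 is at 363 CPM in inhibitory neurons, Erbb3 at 124 CPM in oligodendrocytes, Egfr at 77.3 CPM in astrocytes and Hbegf at 145 CPM in endothelial cells.

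Erbb4 (chromosome 1, 68078760 to 69154633, minus strand, NCBIM37) encodes a neuregulin receptor that can signal without ErbB2. In inhibitory neurons it was measured at 330 and 267 CPM in BCD/Sal, 798, 377 and 350 CPM in BCD/Ket, 212 CPM in CORT/Sal 9969 and 384 and 189 CPM in CORT/Ket. In excitatory neurons the same gene was at 24.2 and 22.5 CPM in BCD/Sal, 18.5, 12.9 and 19.3 CPM in BCD/Ket, 3.59 and 0 CPM in CORT/Sal and 44.4, 0 and 4.5 CPM in CORT/Ket. Every inhibitory value was above every excitatory value. The means were 363 ± 190 CPM (SD, n = 8) and 15.0 ± 13.9 CPM (SD, n = 10), and the log2 difference was 4.13 ± 0.28 (SE, adjusted p = 1.80e-30). Of all genes tested between these classes, 21.3% were called.

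Within the inhibitory class, Erbb4 was higher in the GABAergic interneurons than in the striatal-like projection neurons in each of the 4 mice with at least 10 cells of both. In the interneurons it was at 410 and 535 CPM in BCD/Sal 9901 and 9947, 1158 CPM in BCD/Ket 9946 and 405 CPM in BCD/Ket 9986, and in the striatal-like neurons of the same mice at 104.5, 88.2, 545 and 323 CPM. The difference was 362 ± 225 CPM (SD, n = 4). BCD/Ket 9946 was the highest mouse in both.

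At least 1 Erbb4 UMI was found in 47.3% of 148 interneurons and in 0.463% of 863 microglia, which should lack the gene, at median depths of 1680 and 1587 UMIs per cell. After each cell was thinned to 1000 UMIs the shares were 39.6% of 106 interneurons (exact 95% interval 30.3% to 49.6%), 15.8% of 114 striatal-like neurons, 11.9% of 236 OPCs, 5.46% of 293 oligodendrocytes, 1.63% of 245 excitatory neurons and 0.141% of 710 microglia. The intervals here cover counting error only. The order by cells was that by level.

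OPCs were the next class for Erbb4, at 143 ± 88.0 CPM (SD, n = 6), and oligodendrocytes followed at 65.9 ± 53.5 CPM (SD, n = 8). Inhibitory neurons exceeded OPCs in 4 of the 5 mice that had both, by 134 ± 141 CPM (SD). The mean difference was smaller than its SD, and this pair was not tested. OPCs exceeded oligodendrocytes in 6 of 6 mice, by 105.5 ± 91.4 CPM (SD). Pericytes and border-associated macrophages held no Erbb4 UMI, the first of 713016 UMIs and the second of 140452, which allow up to 4.21 and 21.4 CPM. The genes whose levels ran most like Erbb4 over 71 sums of a library and class (10 classes, 12724 genes compared) were Grik1, Gad1 and Adarb2, with Pearson r of 0.847, 0.843 and 0.839. These sums share libraries and depth.

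Erbb3 (chromosome 10, 128004579 to 128026708, minus strand) encodes a neuregulin receptor with little kinase activity of its own. Among the named classes it was found in the oligodendrocyte lineage, apart from 4 UMIs in ependymal or choroid plexus cells, 2 in endothelial cells and 1 in border-associated macrophages. In oligodendrocytes it was at 63.1 and 204 CPM in BCD/Sal, 120.5, 118 and 137 CPM in BCD/Ket, 162 CPM in CORT/Sal 9969 and 159 and 28.8 CPM in CORT/Ket. In OPCs it was at 30.3 CPM in BCD/Sal 9901, 90.2 and 68.8 CPM in BCD/Ket, 83.0 CPM in CORT/Sal 9969 and 73.3 and 40.6 CPM in CORT/Ket. The 2 ranges overlapped. Oligodendrocytes were higher in 5 of the 6 mice with both classes, and the log2 difference was 0.89 ± 0.33 (SE, adjusted p = 0.0185), in a pair where 51% of all genes tested were called. The call was lost with RLE scaling (0.62 ± 0.34, adjusted p = 0.120) and with DESeq2 (1.08 ± 0.49, adjusted p = 0.0583). The median gene stood at -0.43 in this pair and at -0.67 with RLE scaling, and relative to it Erbb3 was higher by 1.32 and 1.29 on the log2 scale.

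No Erbb3 UMI was found in astrocytes, neurons of either kind, microglia or pericytes. For astrocytes this is 0 of 2604413 UMIs, which allows up to 1.15 CPM, for excitatory neurons 0 of 1520123 (up to 1.97 CPM) and for inhibitory neurons 0 of 767947 (up to 3.91 CPM). Erbb3 ran most like Gal3st1, a sulfotransferase of myelin lipid synthesis, Myrf, a transcription factor of myelination, and Sox10, with r of 0.891, 0.886 and 0.879.

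Erbb2 (chromosome 11, 98273784 to 98299030, plus strand), the partner receptor, was low throughout. Its mean was 22.7 ± 31.7 CPM (SD, n = 9) in astrocytes, 11.4 ± 12.2 CPM (SD, n = 7) in pericytes and 7.87 ± 7.27 CPM (SD, n = 10) in endothelial cells. The astrocyte mean was carried by BCD/Sal 9947, where 1 UMI in 14 cells gave 104.9 CPM, and the other 8 mice ran from 0 to 20.6 CPM. Mean differences between neighbors in this order, over shared mice, were smaller than their SD and were not tested. Oligodendrocytes, the class with the most Erbb3, held 0 Erbb2 UMIs of 1019739, which allows up to 2.94 CPM, and OPCs held 1. Inhibitory neurons, the class with the most Erbb4, also held none, with a limit of 3.91 CPM. So in these counts Erbb3 and Erbb4 were highest in classes where Erbb2 was at or under its floor.

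Egfr (chromosome 11, 16652206 to 16818161, plus strand) encodes the EGF receptor. In astrocytes it was at 126 and 0 CPM in BCD/Sal, 74.7, 87.0 and 120 CPM in BCD/Ket, 68.1 CPM in CORT/Sal 9969 and 40.8, 75.4 and 103 CPM in CORT/Ket. The mouse at 0 was BCD/Sal 9947, with 14 astrocytes and 9536 UMIs, which allow up to 315 CPM. OPCs held no Egfr UMI in any mouse, 0 of 684544 UMIs. Against the limit of 4.38 CPM that this count allows over all OPCs, Egfr of 91.4 CPM in the pooled astrocytes was at least 20.9-fold higher. The fitted difference had an adjusted p of 6.34e-16, and 39.4% of all genes tested differed between these classes. Endothelial cells and excitatory neurons also held none, of 2372635 and 1520123 UMIs. Astrocytes exceeded inhibitory neurons, the next class, in 5 of 8 mice and were lower in 3. The mean difference of 42.0 ± 63.5 CPM (SD) was smaller than its SD, and this pair was not tested. Egfr ran most like Hapln1, Pax6 and Gdpd2, with r of 0.735, 0.697 and 0.687.

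Egfr was also found in GABAergic interneurons and not in the striatal-like projection neurons. The interneurons held 31 UMIs of 385644 (80.4 CPM, exact 95% interval 54.6 to 114 CPM) and the striatal-like neurons 0 of 382303 (up to 7.85 CPM). In the 4 mice with at least 10 cells of both kinds, interneurons were higher in 3 and tied at 0 in 1. The values by mouse were 37.3 and 101 CPM in BCD/Sal, 257 and 0 CPM in BCD/Ket 9946 and 9986, and 87.9 and 26.1 CPM in CORT/Ket 9967 and 9971. The UMIs lay in 21 cells of 6 mice. Of these 21 cells, 13 held Adarb2, 16 held Erbb4, 9 held Cnr1, 8 held Npy, 5 held Vip, 4 held Reln, 1 held Sst and 0 held Lhx6, the last allowing a share of up to 14.3%. Of the 127 interneurons without an Egfr UMI, 59 held Adarb2, 54 Erbb4, 51 Cnr1, 24 Npy, 13 Vip, 40 Reln, 26 Sst and 18 Lhx6. The shares with Adarb2, Erbb4, Npy and Vip were larger in the cells with Egfr, those with Reln, Sst and Lhx6 smaller, and that with Cnr1 was 42.9% against 40.2%. The cells with Egfr were deeper, with a median of 3249 against 1532 UMIs, and the shares were not tested. Astrocyte markers made up 3.81 per 10000 UMIs in the interneurons with Egfr, 3.27 in those without and 298 in astrocytes, and of the 21 cells 0 held Aqp4 and 1 held Gja1.

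**Figure D2:**
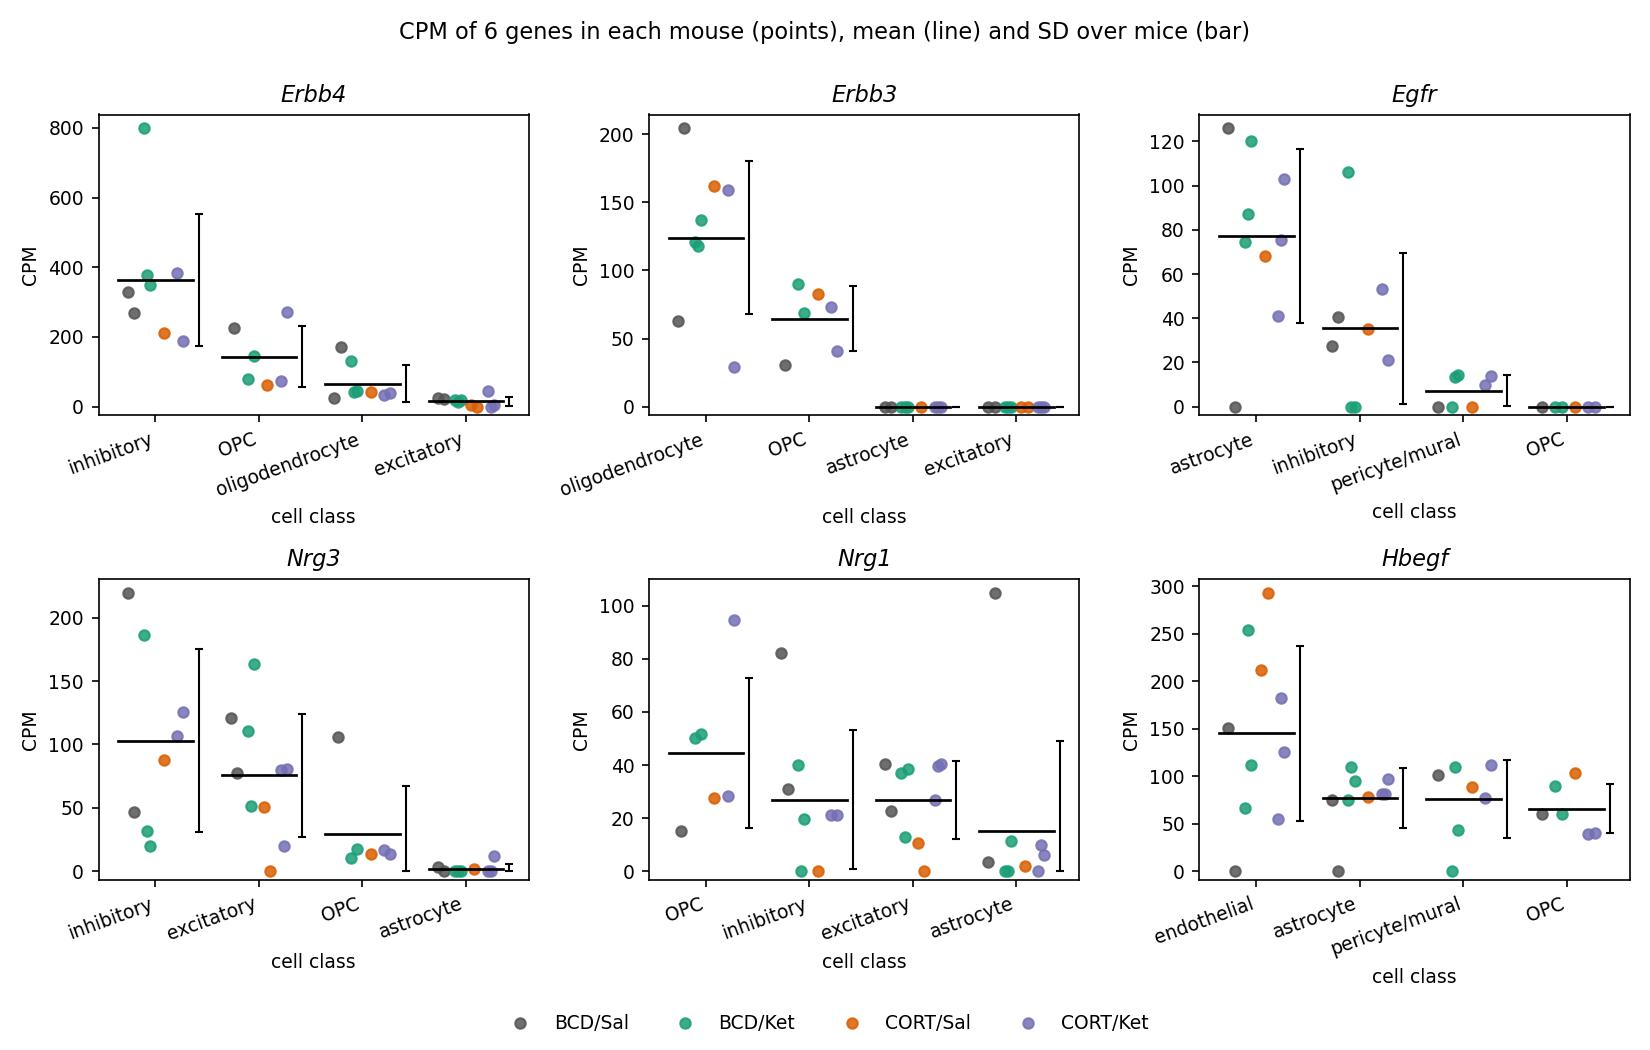
CPM (linear axis) of Erbb4, Erbb3, Egfr, Nrg3, Nrg1 and Hbegf in each mouse with at least 10 cells of the class, by cell class. Points are mice colored by group, horizontal lines are means and bars are SD over mice, cut at 0. Erbb4 in inhibitory neurons lies between 189 and 798 CPM, above all excitatory values, and Egfr is at 0 in all OPC sums.

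Nrg3 (chromosome 14, 39182138 to 40286376, minus strand) encodes a neuregulin that binds ErbB4. Neurons led its order. In excitatory neurons it was at 121 and 77.3 CPM in BCD/Sal, 111, 51.6 and 164 CPM in BCD/Ket, 50.3 and 0 CPM in CORT/Sal and 79.9, 19.7 and 81.0 CPM in CORT/Ket. In astrocytes it did not exceed 11.8 CPM in any mouse. The log2 difference between the classes was 4.43 ± 0.44 (SE, adjusted p = 5.10e-19), in a pair where 60.3% of all genes tested were called. Inhibitory neurons were at 103 ± 72.3 CPM (SD, n = 8) and excitatory neurons at 75.5 ± 48.5 CPM (SD, n = 10), with the first higher in 5 of 8 mice. Their mean difference was smaller than its SD over these mice, and this pair was not tested. Interneurons were higher than striatal-like neurons in 3 of 4 mice. Oligodendrocytes held 0 UMIs of 1019739, up to 2.94 CPM, although OPCs of the same lineage were at 29.6 ± 37.5 CPM (SD, n = 6). The OPC mean was carried by BCD/Sal 9901, with 7 UMIs (106 CPM). The other mice ran from 10.0 to 17.2 CPM on 1 to 3 UMIs each, at or under the floor of 3 counts. The genes most like Nrg3 were Kcnb2, Dpp10 and Rgs17, with r of 0.903, 0.900 and 0.894; the first encodes a potassium channel and the second a potassium channel subunit.

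Nrg1 (chromosome 8, 32928500 to 33119581, minus strand), the best studied neuregulin, had its highest mean among the 10 classes in OPCs, at 15.1 CPM in BCD/Sal 9901, 50.1 and 51.6 CPM in BCD/Ket, 27.7 CPM in CORT/Sal 9969 and 28.2 and 94.8 CPM in CORT/Ket. All 6 mice held at least 1 UMI in this class. Inhibitory neurons at 26.9 ± 26.3 CPM (SD, n = 8) and excitatory neurons at 26.9 ± 14.8 CPM (SD, n = 10) followed. Mean differences between neighbors in this order, over shared mice, were smaller than their SD. OPCs were not tested against either kind of neuron. Without the filter on low counts, the log2 difference of excitatory minus inhibitory neurons was 0.23 ± 0.41 (SE, adjusted p = 0.935). With the inhibitory class split, the striatal-like neurons were at 78.7 ± 87.1 CPM (SD, n = 4), above the OPC mean, and at 41.9 CPM pooled (16 UMIs) against 40.9 CPM pooled (28 UMIs) in OPCs. They stood above the interneurons of the same 4 mice by 53.6 ± 79.7 CPM (SD), a difference that did not exceed its spread. Mouse 9901 carried it, with 4 UMIs in 12 striatal-like neurons (209 against 37.3 CPM), and in mouse 9947 the values were 31.1 and 31.0 CPM. Oligodendrocytes and pericytes held none. The Nrg1 level in OPCs was not met by a level in oligodendrocytes. The same held for Nrg3, whose OPC mean was carried by 1 mouse. Nrg1 ran most like Lrrn2 and St7, with r of 0.821 and 0.786.

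Nrg2 (chromosome 18, 36177333 to 36357034, minus strand) was shared by excitatory neurons at 29.8 ± 33.9 CPM (SD, n = 10), OPCs at 29.1 ± 15.8 CPM (SD, n = 6) and inhibitory neurons at 24.8 ± 26.2 CPM (SD, n = 8). Mean differences between neighbors in this order, over shared mice, were smaller than their SD. Excitatory neurons were not tested against either other class. In excitatory neurons 1 UMI in CORT/Sal 9970 gave 119.5 CPM and the other mice ran from 0 to 46.2 CPM, and with counts pooled over libraries inhibitory neurons led. In OPCs it was at 45.4 CPM in BCD/Sal 9901, 20.03 and 51.6 CPM in BCD/Ket, 13.8 CPM in CORT/Sal 9969 and 16.9 and 27.1 CPM in CORT/Ket. Without the filter on low counts, the log2 difference of OPCs minus inhibitory neurons was 0.03 ± 0.51 (SE, adjusted p = 1). Astrocytes followed at 4.81 ± 4.27 CPM (SD, n = 9). The most alike genes were Ralyl, Iglon5 and Zfp811, with r of 0.857, 0.812 and 0.805.

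Hbegf (chromosome 18, 36664583 to 36675459, minus strand) encodes HB-EGF, a membrane-anchored ligand released by cleavage. In endothelial cells it was at 151 and 0 CPM in BCD/Sal, 66.3, 254 and 112 CPM in BCD/Ket, 211 and 293 CPM in CORT/Sal and 54.9, 182 and 125 CPM in CORT/Ket. The value of CORT/Sal 9970 rests on 1 UMI, and that of BCD/Sal 9947 on 0 of 33734 UMIs, which allow up to 88.9 CPM. In astrocytes the values were 74.9 and 0 CPM in BCD/Sal, 74.7, 110 and 95.1 CPM in BCD/Ket, 78.1 CPM in CORT/Sal 9969 and 81.7, 81.4 and 97.2 CPM in CORT/Ket. The ranges overlapped, with endothelial cells higher in 6 of 9 mice, lower in 2 and tied at 0 in 1. The mean difference over these mice was 51.5 ± 63.6 CPM (SD), smaller than its SD. The log2 difference was 0.87 ± 0.18 (SE, adjusted p = 7.01e-06), and 63.3% of all genes tested between these classes were called. With RLE scaling it was 0.28 ± 0.19 (adjusted p = 0.177). The median gene was then at -0.52 in place of 0.02, and relative to it Hbegf stood at 0.80 and 0.85.

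Below endothelial cells, Hbegf was at 77.0 ± 31.3 CPM (SD, n = 9) in astrocytes, 76.0 ± 41.1 CPM (SD, n = 7) in pericytes and mural cells and 65.8 ± 26.2 CPM (SD, n = 6) in OPCs. Mean differences between neighbors among these 3, over shared mice, were smaller than their SD and were not tested. OPCs were above the next class, ependymal or choroid plexus cells, in 3 of 3 mice, by 49.3 ± 15.1 CPM (SD). Neurons and oligodendrocytes were lower, at 11.8 CPM or less on average. Newly formed oligodendrocytes, a class of 12 cells too small to be averaged, held Hbegf at 6 UMIs in BCD/Ket 9949 and 1 in BCD/Ket 9986. They held 3 in CORT/Sal 9969, 1 in CORT/Ket 9968 and 0 in BCD/Sal 9901. The genes most like Hbegf were Cyr61, an immediate early gene, and Mfsd2a, a lipid transporter of brain endothelium, each with r of 0.807, and the next was Rgcc with 0.793.

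Btc (chromosome 5, 91786287 to 91831939, minus strand) encodes betacellulin. Over the named classes it was found at 4 UMIs in inhibitory neurons, 4 in oligodendrocytes, 3 in OPCs, 2 in astrocytes and 1 in pericytes. Endothelial cells held 0 of 2372635 UMIs, which allows up to 1.26 CPM. Without the filter on low counts, the log2 difference of endothelial cells minus astrocytes was -1.20 ± 0.87 (SE, adjusted p = 0.319). Btc passed the filter in no class for the treatment contrasts.

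Sending and receiving classes were set side by side with a mass-action product of ligand and receptor levels in the same mouse, which runs from 0 to 1 and was averaged over mice. For Nrg3 to Erbb4 the highest products were excitatory to inhibitory neurons, with a mean of 0.633 (range 0.481 to 0.766 over 8 mice), and inhibitory to inhibitory neurons, with 0.603 (0.349 to 0.822). Neurons to OPCs followed, at 0.456 from inhibitory and 0.446 from excitatory neurons. For Nrg1 to Erbb4 the highest mean was from OPCs to inhibitory neurons, 0.470 over 5 mice, then from excitatory to inhibitory neurons, 0.403 over 8. For Nrg1 to Erbb3 they were OPCs to oligodendrocytes, 0.303 over 6 mice, and excitatory neurons to oligodendrocytes, 0.264 over 8. The ranges of these neighbors overlapped. The products were not tested between classes, since each is built from the levels above.

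For Hbegf to Egfr, the highest products among the 10 classes had astrocytes as receiver. Endothelial cells to astrocytes had a mean of 0.440 (range 0 to 0.613 over 9 mice), and OPCs, pericytes and astrocytes to astrocytes had means of 0.389, 0.383 and 0.379. Endothelial cells to inhibitory neurons stood at 0.206 over 8 mice, in a class that joins interneurons with striatal-like neurons, which held no Egfr, and products for interneurons alone were not computed. Through Erbb4, Hbegf gave products with inhibitory neurons (0.606 from endothelial cells) and OPCs (0.599). Products of different receptors were not ranked, since levels are not compared between genes. By treatment, the Nrg3 to Erbb4 product of excitatory to inhibitory neurons averaged 0.648 over 2 BCD/Sal mice, 0.692 over 3 BCD/Ket mice and 0.603 over 2 CORT/Ket mice. Mouse 9969, the 1 CORT/Sal mouse with enough inhibitory neurons, was at 0.481, and its difference from the other groups was not tested.

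**Figure D3:**
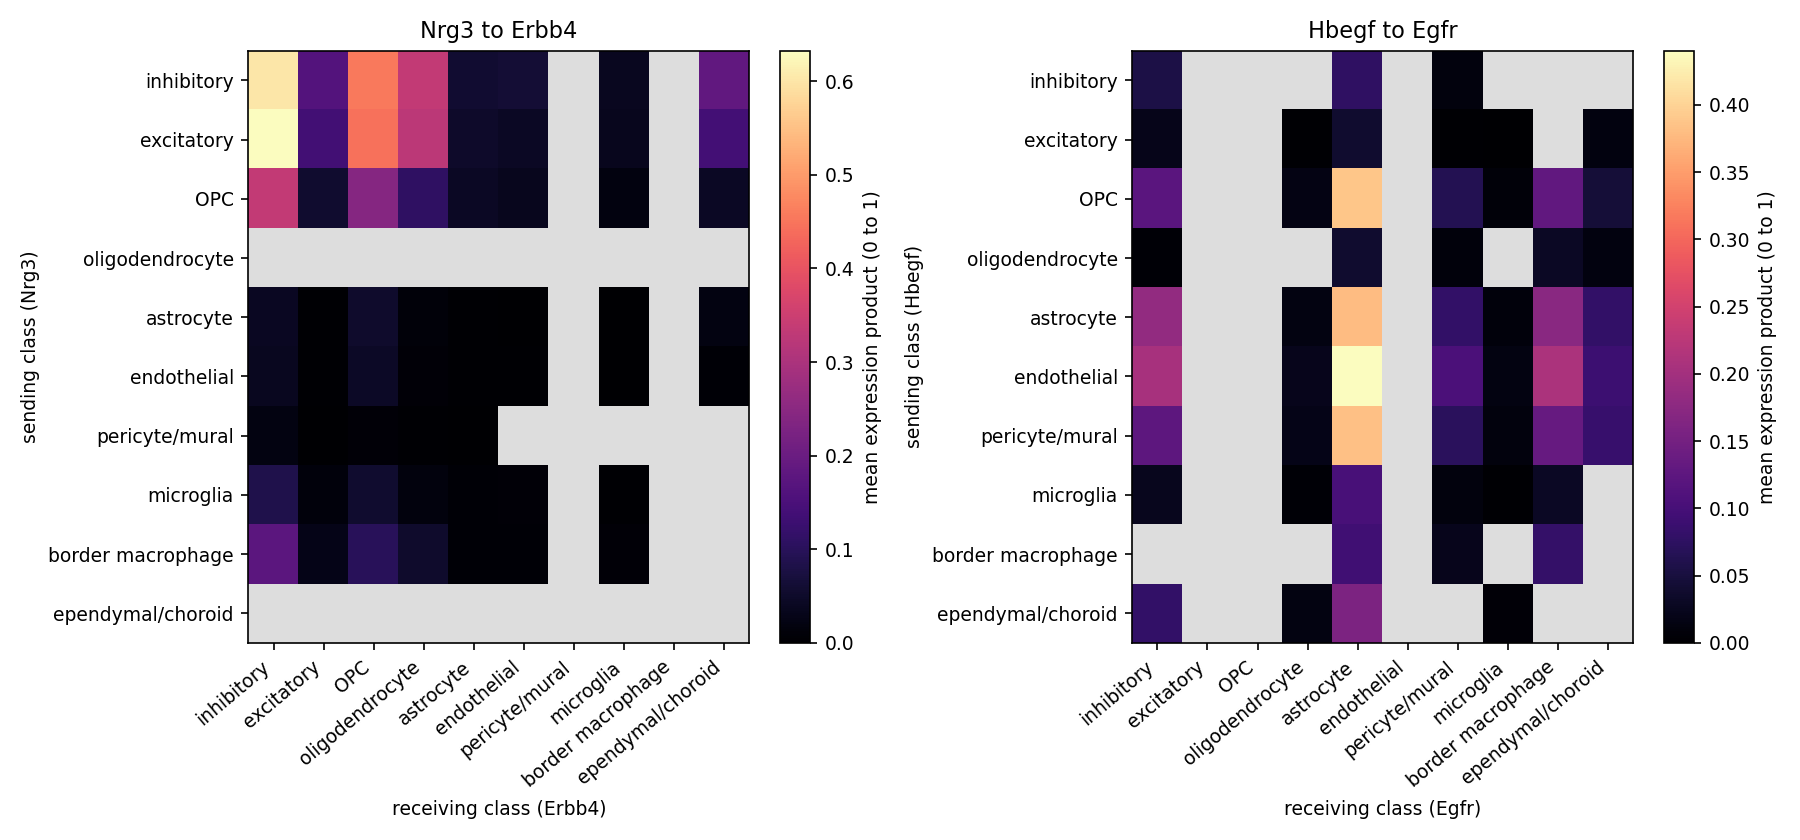
Mean product of ligand and receptor levels (color, 0 to 1) for each sending class (rows) and receiving class (columns), for Nrg3 to Erbb4 on the left and Hbegf to Egfr on the right. Grey cells have a product of 0 in every mouse or fewer than 3 mice with both classes; the highest means are 0.633 from excitatory to inhibitory neurons and 0.440 from endothelial cells to astrocytes.

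No member was called between treatments. The question of these contrasts is whether corticosterone or ketamine was accompanied by other levels of ligands or receptors within a cell class. Classes entered a contrast with at least 2 mice of 10 or more cells in each group, which left endothelial cells and excitatory neurons for the contrasts with CORT/Sal, 5 classes for BCD/Ket against BCD/Sal and 8 for CORT/Ket against BCD/Ket. Between CORT/Sal and BCD/Sal, 0 of 2 member tests were called (Nrg3 in excitatory neurons and Hbegf in endothelial cells), beside 0.0593% of all 10116 tests of genes within classes. Between CORT/Ket and CORT/Sal it was 0 of 2, beside 0% of all, and for the difference of the ketamine effects with and without corticosterone again 0 of 2, beside 0% of all. In these last 2 comparisons 228 and 312 of 10116 tests had an unadjusted p below 0.05 by edgeR, and DESeq2 called 1 and 0 of all 10116. Between BCD/Ket and BCD/Sal 0 of 9 member tests were called, beside 0.00791% of all 25286, and between CORT/Ket and BCD/Ket 0 of 13, beside 0.0176% of all 39689. In no contrast did a member have an unadjusted p below 0.05, by edgeR or by DESeq2. A missed call does not show that levels were alike, and the standard errors below give the precision. Nrg2 and Btc passed the filter on low counts in no class. In microglia and pericytes no member passed it.

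Nrg3 in excitatory neurons had the larger difference of the 2 members tested between CORT/Sal and BCD/Sal. It stood at 50.3 CPM and 0 of 8370 UMIs (up to 358 CPM) in CORT/Sal and at 121 and 77.3 CPM in BCD/Sal, a log2 difference of -1.12 ± 0.67 (SE, adjusted p = 0.942). Without CORT/Sal 9970 it was -0.99 ± 0.69 (adjusted p = 0.994). Without CORT/Sal 9969, which leaves a CORT/Sal group of 0 UMIs, the fitted value was -6.79 ± 3.92 (adjusted p = 0.570), which depends on the prior count and is no bound. CORT/Ket minus CORT/Sal was 0.61 ± 0.69 (adjusted p = 0.999), with CORT/Ket mice at 79.9, 19.7 and 81.0 CPM. Of these 3 mice, 2 were above CORT/Sal 9969, and the limit of CORT/Sal 9970 was above all 3. CORT/Ket minus BCD/Ket was -0.67 ± 0.53, with BCD/Ket mice at 111, 51.6 and 164 CPM. The groups overlapped in these last 2 comparisons.

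Hbegf in endothelial cells stood 0.80 ± 0.53 higher on the log2 scale in CORT/Sal than in BCD/Sal (SE, adjusted p = 0.846), and the values of the 2 groups, given above, did not overlap. Without CORT/Sal 9970, whose value is 1 UMI, it was 0.91 ± 0.61. Without CORT/Sal 9969 the sign turned, at -0.22 ± 2.39 (adjusted p = 0.9498), and without BCD/Sal 9947 it was 0.42 ± 0.61. Without BCD/Sal 9901 the BCD/Sal group held 0 UMIs and the fitted value, no bound either, was 8.54 ± 2.82 (adjusted p = 0.813). The direction thus rests on single mice. CORT/Ket minus CORT/Sal was -0.49 ± 0.47 and BCD/Ket minus BCD/Sal 0.50 ± 0.46, and the difference between these ketamine effects was -0.98 ± 0.65 (adjusted p = 0.997). In astrocytes BCD/Ket minus BCD/Sal was 0.54 ± 0.57, where 1 of 2 BCD/Sal mice held no UMI.

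Erbb4 in inhibitory neurons was higher in each of the 3 BCD/Ket mice (798, 377 and 350 CPM) than in both BCD/Sal mice (330 and 267 CPM), with a log2 difference of 0.70 ± 0.59 (SE, adjusted p = 1.00). It was lower in CORT/Ket than in BCD/Ket by 0.76 on the log2 scale, at -0.76 ± 0.60 (adjusted p = 0.999), with CORT/Ket 9967 at 384 CPM inside the BCD/Ket range. The mice differed in the makeup of this class. BCD/Sal 9901 held 41 interneurons and 12 striatal-like neurons, and BCD/Sal 9947 held 22 and 50. In the same order, BCD/Ket 9946 held 16 and 20 and BCD/Ket 9986 held 13 and 19. CORT/Ket 9967 held 12 and 8, and CORT/Ket 9971 held 23 and 7. In the interneurons alone BCD/Ket and BCD/Sal overlapped, at 1158, 532 (7 cells) and 405 CPM and at 410 and 535 CPM. CORT/Ket interneurons were at 545 CPM in 9967, inside the BCD/Ket range, and below it at 158 (6 cells) and 104 CPM in 9968 and 9971. In oligodendrocytes Erbb4 was at 33.4 and 38.4 CPM in CORT/Ket and at 131, 42.1 and 43.8 CPM in BCD/Ket, -0.82 ± 0.72, and in OPCs at 73.3 and 271 against 80.1 and 146 CPM, 0.42 ± 0.57. Neither passed the test, and the 2 values have opposite signs.

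Egfr in astrocytes gave -0.19 ± 0.53 for BCD/Ket minus BCD/Sal and -0.26 ± 0.44 for CORT/Ket minus BCD/Ket. Erbb2 in astrocytes gave -0.41 ± 0.80 and 0.07 ± 0.62, and Erbb3 in oligodendrocytes 0.22 ± 0.57 and -0.35 ± 0.47 (log2, SE, same order). The groups overlapped in each. Over all 13 member tests of CORT/Ket against BCD/Ket, 5 were higher and 8 lower, with a median of -0.23, while the median gene ranged from -0.03 to 0.04 over the classes. Over the 9 of BCD/Ket against BCD/Sal, 5 were higher and 4 lower, with a median of 0.16, while the median gene ranged from -0.004 to 0.05. The 13 tests cover 7 genes and the 9 tests 6, repeated over classes of the same mice. They are not independent, and a shift of the members as a set was not tested.

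**Figure D4:**
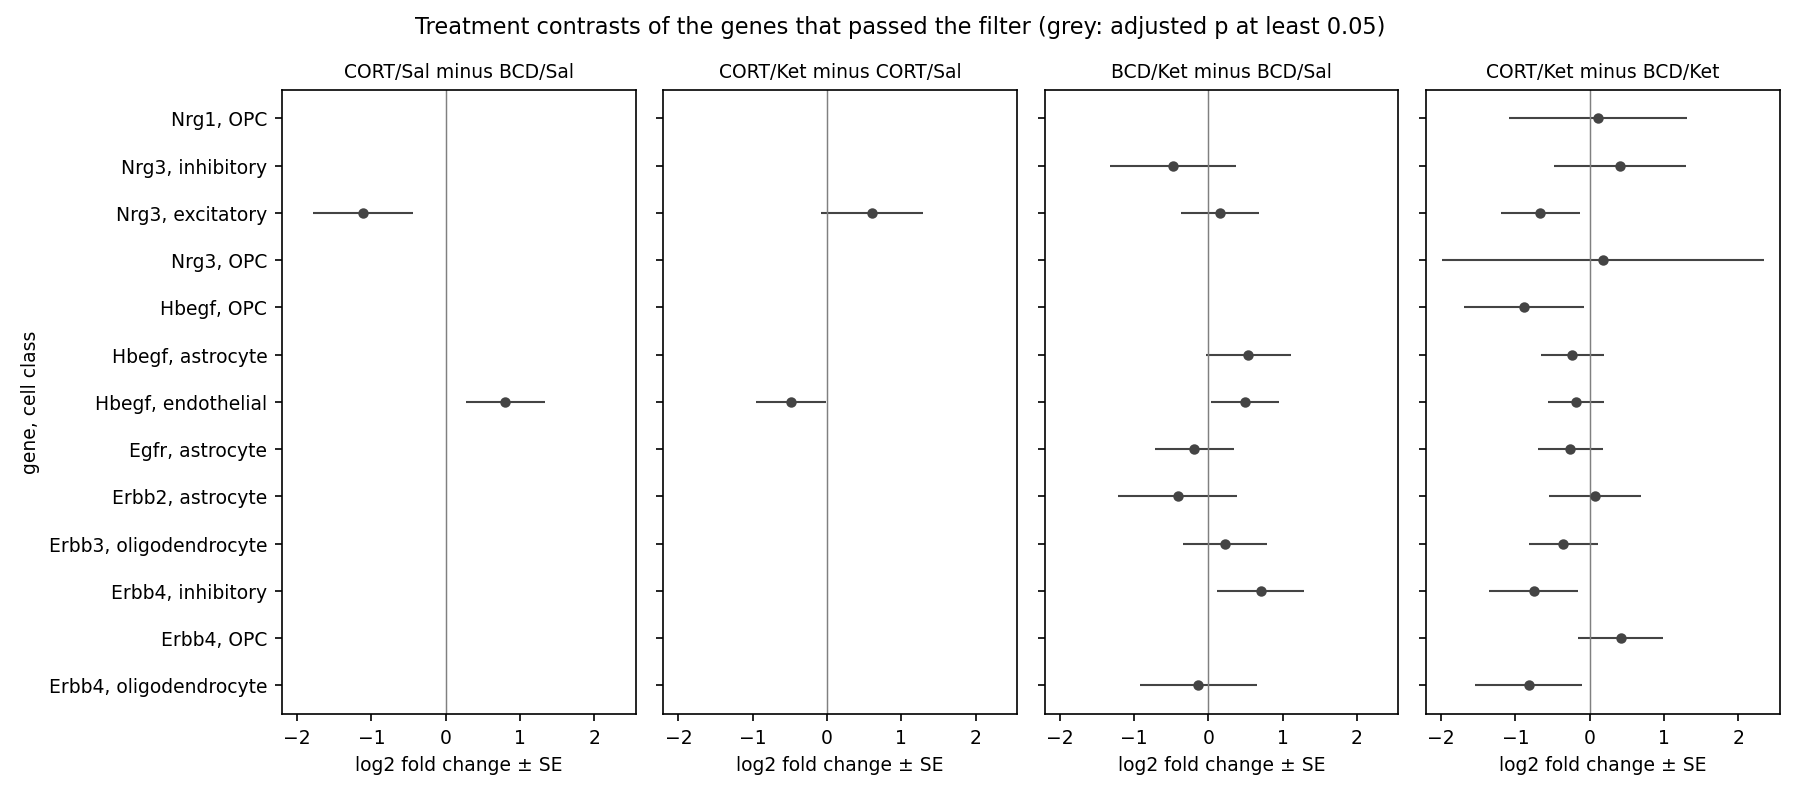
Log2 fold change ± SE of each member that passed the filter (rows, gene and cell class) in 4 treatment contrasts (panels). All points are grey, an adjusted p of at least 0.05; Nrg3 in excitatory neurons is at -1.12 and Hbegf in endothelial cells at 0.80 for CORT/Sal minus BCD/Sal.

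The 64 other genes of the pathway were followed with the members. Among the 6 remaining EGF-family ligands, Tgfa, which encodes the EGF receptor ligand TGF-alpha, held 543 UMIs in the 10 classes and was highest in OPCs, at 166 ± 64.7 CPM (SD, n = 6), and in oligodendrocytes, at 137 ± 100.5 CPM (SD, n = 8). Astrocytes were at 21.7 ± 32.1 CPM (SD, n = 9) for Tgfa. The other 5 ligands held fewer than 50 UMIs each, and Areg and Ereg held 0. Of the 8 genes of ligand processing, Bace1, a protease that cleaves Nrg1, was highest in oligodendrocytes at 156.5 ± 35.6 CPM (SD, n = 8), and Adam10 and Adam17, proteases that shed EGF-family ligands, in endothelial cells (242.5 ± 72.1 CPM, SD, n = 10) and microglia (144 ± 32.2 CPM, SD, n = 6). Of the 8 genes of receptor inhibition and degradation, Lrig1, a negative regulator of ErbB receptors, was highest in astrocytes, at 144.5 ± 59.7 CPM (SD, n = 9). These class orders are descriptions.

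Among these genes, 0 of 58 tests were called between CORT/Sal and BCD/Sal, 0 of 58 between CORT/Ket and CORT/Sal, 0 of 143 between BCD/Ket and BCD/Sal and 0 of 241 between CORT/Ket and BCD/Ket by edgeR, and 2, 0, 0 and 5 of them had an unadjusted p below 0.05. Over all genes 5.39%, 2.25%, 2.97% and 2.14% of tests did, so the pathway genes did not stand out by this count, and the 7 are named only to account for them. The 2 were Adam17 in endothelial cells (log2 difference -1.38 ± 0.65, SE) and the ERK kinase gene Mapk3 in excitatory neurons (1.13 ± 0.55), with adjusted p of 0.725 and 0.942. In the last contrast the 5 were Fos, an immediate early gene, in astrocytes (-1.76 ± 0.72) and microglia (-3.82 ± 1.497), Errfi1, a feedback inhibitor of the EGF receptor, in oligodendrocytes (-1.91 ± 0.81), Bace1 in pericytes (1.67 ± 0.64) and Nras in microglia (0.85 ± 0.42). Each of these 5 had an adjusted p of at least 0.999. The median over pathway tests was -0.25 for CORT/Sal minus BCD/Sal, with 23 of 58 higher, where the median gene was at -0.06 in endothelial cells and -0.14 in excitatory neurons.

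Promoters were available for 5 of the 9 members (RefSeq, GRCm38.p6, 250 bases before to 50 after the start). The core letters of corticosteroid receptor sites, AGAACA on either strand, was searched because corticosterone was the treatment. It was in none of the 5 windows and in 19.0% of 32851 windows of the same length, and the cAMP response element TGACGTCA was in none and in 1.79%. These letters being absent from a window says nothing of the receptors elsewhere. The windows of the 2 receptor genes with the clearest class pattern are shown, Erbb4 at chr1:69108010-69108309 (minus strand) and Egfr at chr11:16751953-16752252 (plus strand), with capitals for GGGCGG on either strand, a motif of GC-rich promoters that 35.7% of all windows hold. It occurs in the Egfr window and not in that of Erbb4, which is therefore in lower case throughout.
Erbb4: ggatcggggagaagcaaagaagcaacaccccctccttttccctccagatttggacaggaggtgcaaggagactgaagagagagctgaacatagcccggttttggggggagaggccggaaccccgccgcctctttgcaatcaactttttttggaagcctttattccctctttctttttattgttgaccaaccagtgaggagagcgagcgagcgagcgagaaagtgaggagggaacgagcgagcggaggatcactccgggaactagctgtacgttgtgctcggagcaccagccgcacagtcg
Egfr: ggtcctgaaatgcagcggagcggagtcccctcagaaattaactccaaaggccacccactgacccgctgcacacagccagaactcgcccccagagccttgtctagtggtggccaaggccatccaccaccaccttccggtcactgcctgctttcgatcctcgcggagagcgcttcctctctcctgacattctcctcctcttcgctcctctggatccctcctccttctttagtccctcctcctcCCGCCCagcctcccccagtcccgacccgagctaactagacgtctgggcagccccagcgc
The Erbb4 window is 55.3% G and C and the Egfr window 62.3%, against a median of 52.7% over all windows.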

How the data were processed

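Cell Ranger made the deposited matrices (version 3.0.2 per the file headers), which hold unnormalized UMI counts for each barcode and gene. The methods name mm9, and the annotation behind the counts is not given in the sources used here. Ensembl identifiers were looked up in GENCODE M1 (NCBIM37) for gene positions, although the identifiers of the counts go beyond that release. All gene positions are thus on NCBIM37 and the promoter windows on GRCm38.p6, so these coordinates cannot be set against each other. Gene spans may differ in a later annotation. Labels gave each sample's group.

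Barcodes with at most 12.5% mitochondrial UMIs and at least 200 genes were kept, with no doublet removal, scaled to 10000, log-transformed and clustered (2000 variable genes, 30 principal components, 20 neighbours, Leiden resolution 0.8, seed 1) with scanpy 1.11.5 and leidenalg 0.10.2 in Python 3.11.15. Leading genes had to be detected in 10% of a cluster, and their reference omitted any cluster drawn to over 90% from a single library. The 3180 barcodes of 3 unnamed clusters entered no class. Counts were summed per library and class (at least 10 cells) and tested with edgeR 4.0.16 (TMM, filterByExpr, robust quasi-likelihood, Benjamini-Hochberg threshold 0.05) in R 4.3.3. Class pairs were fitted over all classes with the mouse as a block, and treatments in 1 fit of all groups per class. The fits were also run on simulated data, where most of the changes put in were missed in several contrasts. Alternatives were RLE factors, DESeq2 1.42.0, no filter, only the groups or classes compared, 500 genes, 5% or 25% mitochondrial UMIs, removal of 216 barcodes by Scrublet score, 30 cells, Leiden resolutions 0.4 and 1.2, the listed genes kept in clustering, GABAergic interneurons only, counts pooled over libraries, each library left out, and, chosen after seeing the data, the large unnamed cluster counted as excitatory neurons.

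Products were LR/(0.5 + LR), with L and R the natural log of 1 plus counts per 10000. Likeness was Pearson's r of log2(CPM + 10) among genes with at least 50 UMIs. Intervals are exact at 95%, and floors are 3 counts; both cover counting error only. The members, gene lists and class pairs were chosen with earlier results of these data known. All members are described over the classes large enough to be averaged, with values by mouse in the leading and paired classes. Fibroblast-like cells (27) and newly formed oligodendrocytes (12) reached 10 cells in no library and were not averaged. At most 3 called pathway genes were to be named per class and contrast, of which there were none. The pathway genes named were otherwise chosen after their values were seen. The labels do not say whether libraries were prepared together, and no batch is named.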

Additional observations from a re-analysis of the deposited data

How the results depend on the processing

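The 5 tested class differences kept their direction in every alternative. Calls were lost for Erbb3 in oligodendrocytes minus OPCs with RLE factors (0.62, adjusted p = 0.120) and DESeq2 (1.08, adjusted p = 0.0583), and for Hbegf in endothelial cells minus astrocytes with RLE factors (0.28, adjusted p = 0.177). With each library left out, Erbb3 ran from 0.88 to 1.22, Hbegf from 0.57 to 0.94, Erbb4 in inhibitory minus excitatory neurons from 3.83 to 4.33 and Nrg3 in excitatory neurons minus astrocytes from 4.07 to 5.18 on the log2 scale, and no call was lost. With the large unnamed cluster counted as excitatory neurons, an alternative chosen after seeing the data, Erbb4 stood at 3.80 and Nrg3 at 4.66.

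The count of members called between treatments was 0 in every alternative that could be fitted. Signs of these uncalled effects turned in 35 of 539 comparisons with an alternative, in 18 of 28 effects. Counts over all genes moved more: CORT/Ket against BCD/Ket gave 7 calls, 32 with at least 500 genes, 22 without a filter and 0 by DESeq2. The contrasts with CORT/Sal could not be fitted with at least 30 cells, at least 500 genes or at most 5% mitochondrial UMIs, since CORT/Sal then had fewer than 2 libraries in a class. Mean levels in the leading classes moved by less than 1 SD in all alternatives. No paired analysis was possible because the groups compared share no mouse, and the prefrontal libraries with the same mouse numbers were not analysed here. Where a library left out leaves 1 in a group, it is assumed to vary like the others. Low counts and few mice set the limits: Btc, Nrg2 and Erbb2 rest on few UMIs, and CORT/Sal rests on 1 mouse outside excitatory neurons and endothelial cells.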

Other observations

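The unnamed clusters and the barcodes over the mitochondrial limit also held UMIs of the members, and they entered no comparison. The larger unnamed cluster drawn from all 10 libraries (823 barcodes), led by Cpne7, Miat, Mirg and the noncoding RNA Meg3, held Nrg3 at 141 CPM (201 UMIs, exact 95% interval 122 to 162 CPM), Nrg1 at 44.1 CPM (63 UMIs), Nrg2 at 24.5 CPM and Erbb4 at 21.0 CPM. BCD/Sal 9901 gave 46.4% of its barcodes, 104 of its Nrg3 UMIs and 33 of its Nrg1 UMIs, so these pooled values weigh that mouse most. Pooled excitatory neurons stood at 84.9 CPM for Nrg3, 28.3 CPM for Nrg1 and 16.4 CPM for Erbb4.

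In the unnamed cluster of 2351 barcodes, nearly all of the library labelled CORT/Sal 9970, the values were 21.3 CPM for Nrg3, 23.4 CPM for Nrg2, 21.5 CPM for Erbb4, 16.1 CPM for Hbegf and 13.9 CPM for Erbb3, pooled over the cluster, and Egfr held 44 UMIs. So genes that lay in different named classes, such as Erbb3 and Egfr, were found together in it. The 20364 barcodes over the mitochondrial limit held all 9 members as well, pooled at 25.03 CPM for Erbb4, 22.6 CPM for Nrg3, 14.6 CPM for Hbegf, 8.61 CPM for Egfr and 5.84 CPM for Erbb3.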
